A study of Rattus norvegicus with 63 samples.

Results

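The kinase AKT1, the kinase MTOR and the ribosomal protein S6 (RPS6) were followed in the livers of male Wistar Hanover rats on reverse-phase protein arrays, on which liver lysates are printed as spots and each array is probed with 1 antibody. Every analyte whose deposited name carries the symbol AKT1, MTOR or RPS6, apart from antibody numbers and modified residues, was taken whatever its values, which gave 8 of the 158 analytes. 4 of them are total protein signals (AKT1, MTOR, RPS6_1 and RPS6_2, the last 2 being different antibodies against S6) and 4 are phosphorylated forms (AKT1_P-S473, MTOR_P-S2448, MTOR_P-S2481 and RPS6_P-S235/S236, called phospho-S6 hereafter). Each value is a relative fluorescence intensity (RFI) on a linear scale. All 504 values of these 8 analytes were above 0, so each of them was measured in all 63 animals.

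AKT1, MTOR and S6 lie along the insulin and nutrient signaling route. AKT1 is a kinase activated below phosphatidylinositol 3-kinase, and S473 is a regulatory site near its carboxyl end whose phosphorylation accompanies activity. MTOR is a kinase that senses amino acids and energy, S2448 is a site on it reached by S6 kinase, and S2481 is an autophosphorylation site. S6 is a protein of the small ribosomal subunit, and its serines S235 and S236 are phosphorylated by S6 kinase below MTOR and also by RSK kinases below ERK. In liver this route follows feeding and is linked to protein synthesis and cell growth.

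45 rats had received 1 of 15 compounds by gavage, 3 rats per compound, and 18 rats in 6 control sets of 3 had received the vehicle alone. The animals were 8 to 10 weeks old. Each compound carries a control set number in its labels, and that set is called its labelled set here. Methylcellulose control set 1 was the labelled set of acetamide (AA, 3000 mg/kg per day for 14 days), dehydroepiandrosterone (DHEA, 600 mg/kg per day for 14 days), methylcarbamate (Mcarb, 400 mg/kg per day for 14 days), methapyrilene (MPy, 60 mg/kg per day for 7 days), thioacetamide (TAA, 19.2 mg/kg per day for 7 days) and Wy-14643 (Wy, 60 mg/kg per day for 3 days). Methylcellulose set 2 belonged to cefuroxime (CFX, 250 mg/kg per day for 14 days) and nifedipine (Nif, 3 mg/kg per day for 14 days). Methylcellulose set 5 belonged to diethylstilbestrol (DES, 10 mg/kg per day for 3 days), ethionine (ETH, 200 mg/kg per day for 14 days) and piperonylbutoxide (PBO, 1200 mg/kg per day for 3 days). Methylcellulose set 6 belonged to phenobarbital (PB) alone, given for 14 days at a dose not stated in the labels. Corn oil set 3, dosed for 7 days, belonged to C.I. Direct Black (CIDB, 146 mg/kg per day) and dimethylnitrosamine (DMN, 4 mg/kg per day), both given for 7 days, and corn oil set 4 to cyproterone acetate (CPA, 100 mg/kg per day), with 14 days for both. All methylcellulose control animals are labelled 14 days, although MPy, TAA, Wy, DES and PBO were given for 3 or 7 days. The study's methods describe the controls as matched in time, so the duration of the controls for these compounds was not settled here. According to the study's methods the treated animals of a group were chosen from larger groups by liver histopathology, so the groups describe selected animals.

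Compounds were compared with their labelled set and with all controls of their vehicle by limma on log2 RFI, and an analyte was called at a Benjamini-Hochberg adjusted p below 0.05 over all 158 analytes. The number of animals, 3 per group, limits the precision. P-values set each difference against the spread of these animals within groups, pooled over all groups of the fit and moderated by limma. The median RFI over all analytes ran from 0.425 to 0.882 per animal, and the brightest animal was animal 1 of methylcellulose set 6. As to the tissue, 6 of 8 hepatocyte symbols were on the array, as 9 analytes with median RFI of 0.324 to 6.11 and 11 values at or below 0. Markers of biliary, stellate, endothelial and white blood cells were not among the analytes (0 symbols each), so the share of other cells was not tested. In whole-liver lysate, fewer cells of a type and less protein per cell cannot be told apart.

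Phospho-S6 varied over the widest range of the 8 analytes. Over the 63 animals its RFI ran from 0.560 to 12.7 with a median of 3.08, a 22.7-fold range. Total S6 ran from 2.78 to 36.7 by RPS6_1, a 13.2-fold range, and from 0.0646 to 0.633 by RPS6_2, a 9.79-fold range. Total and phosphorylated AKT1 and MTOR stayed within ranges of 2.25-fold to 2.69-fold. RFI depends on the antibody, so levels of different analytes were not compared with each other.

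The authors' second set of values, log2 ratios of the same animals, allowed a check of the names. Over the 45 treated animals, phospho-S6 in one table correlated best with phospho-S6 in the other (Spearman 0.957), and so did RPS6_1 (0.982), RPS6_2 (0.936), MTOR (0.684), MTOR_P-S2448 (0.602) and AKT1 (0.556). For AKT1_P-S473 (0.495) and MTOR_P-S2481 (0.420) 5 other analytes correlated better than the one of the same name, so these names are given only as deposited. Of the other analytes named here, MAP2K1 (0.351), MAP2K2 (-0.145), CDKN1B_P-S10 (0.369), ATMIN_P-S/T (0.364), RPS6KA4 (0.507) and MAPK14 (0.340) did not match best either.

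Control animals that had received the same vehicle already differed in phospho-S6. In methylcellulose set 1 the 3 animals had phospho-S6 RFI of 9.66, 6.69 and 4.52, in set 2 of 11.8, 8.00 and 4.76, and in set 5 of 12.7, 8.16 and 12.6. In set 6 the values were 3.66, 1.43 and 0.945. All 3 animals of set 6 thus lay below all 9 animals of the other methylcellulose sets.

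The mean phospho-S6 RFI (± SD, n = 3) was 6.96 ± 2.58 in set 1, 8.19 ± 3.53 in set 2, 11.1 ± 2.59 in set 5 and 2.01 ± 1.45 in set 6. Set 5 exceeded set 6 by 2.68 on the log2 scale (SE 0.59), 6.42-fold, with a limma adjusted p of 0.00700. This was the 1 call among the 56 comparisons of the 8 analytes between control sets of the same vehicle, where 0.0904% of all analyte comparisons were called. Sets 2 and 1 exceeded set 6 by 2.17 (adjusted p = 0.0669) and 1.96 (adjusted p = 0.296), which did not pass, and the differences among sets 1, 2 and 5 were at most 0.72 in size with 95% intervals that held 0. The call between sets 5 and 6 was lost when animal 7 (adjusted p = 0.0613) or 9 (0.0598) was left out of set 5, or animal 2 (0.0668) or 3 (0.120) out of set 6. Without animal 1 of set 6, the animal with the highest median RFI over all analytes, the difference was 3.23 (adjusted p = 0.00151).

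**Figure D1:**
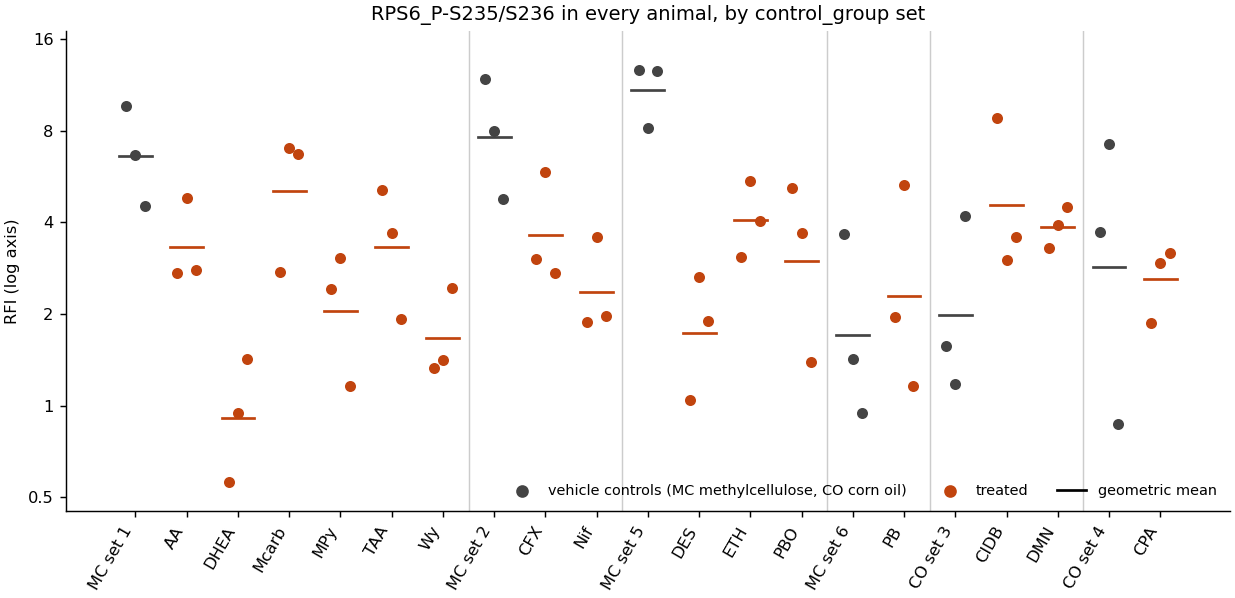
Phospho-S6 RFI of each of the 63 animals on a logarithmic axis, grouped by control set. Dark points are vehicle controls, orange points are treated animals and bars are geometric means of 3 animals. The 3 animals of methylcellulose set 6 (0.945 to 3.66) lie below the 9 animals of sets 1, 2 and 5 (4.52 to 12.7).

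When the 4 methylcellulose sets were tested together, phospho-S6 was the 1 analyte of 158 that differed among them (moderated F = 7.81, adjusted p = 0.0402, against a background of 0.633% called), while the other 7 analytes all had an adjusted p of 0.999. The F test call was lost when any of 7 of the 12 control animals was left out, with adjusted p of 0.0513 to 0.528. The SD of the 4 set means of log2 phospho-S6 was 1.18, the largest of 156 analytes measured in all these animals, against a median of 0.116 over analytes. Animals within a set also varied, with an SD of 0.683 on the log2 scale against a median of 0.269. With set 6 left out, the SD of the set means was 0.370 and the range over the remaining 9 controls was 2.81-fold, compared with 13.4-fold over all 12.

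The other members were closer among the methylcellulose controls. Over the 12 animals AKT1 spanned 2.16-fold, AKT1_P-S473 2.02-fold, MTOR 1.60-fold, MTOR_P-S2448 2.20-fold and MTOR_P-S2481 1.76-fold. Total S6 spanned 2.76-fold by RPS6_1 and 2.96-fold by RPS6_2. Animal 1 of set 6 was the highest of the 12 for AKT1 (0.574), AKT1_P-S473 (0.446), MTOR (0.964), MTOR_P-S2448 (1.04) and MTOR_P-S2481 (0.454), and its phospho-S6 of 3.66 was lower than in each animal of the other 3 sets.

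**Figure D2:**
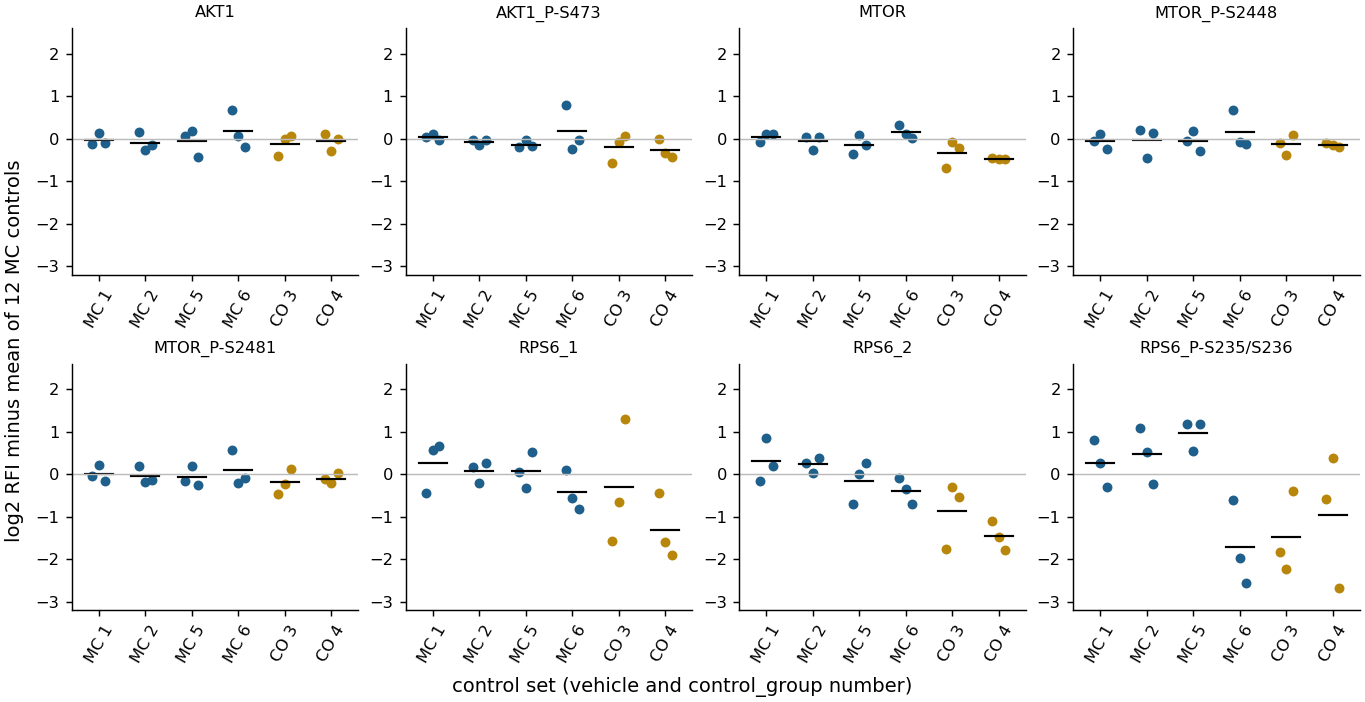
The 8 AKT1, MTOR and RPS6 analytes in the 18 vehicle control animals, 1 panel per analyte, as log2 RFI minus the mean of the 12 methylcellulose controls. Points are animals and bars are means of 3 animals, and phospho-S6 is the analyte whose set 6 lies apart from sets 1, 2 and 5.

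In corn oil the phospho-S6 RFI was 1.57, 1.18 and 4.21 in set 3 and 3.71, 7.26 and 0.871 in set 4. These values overlapped, and the sets differed by -0.53 on the log2 scale (set 3 minus set 4, adjusted p = 0.788). The 6 animals spanned 8.34-fold. Corn oil controls as a group were lower than methylcellulose controls in 3 of the 8 analytes, where 15.8% of all analytes were called and all of those were lower. The 3 were MTOR (-0.40, SE 0.12, adjusted p = 0.0340), RPS6_2 (-1.15, SE 0.32, adjusted p = 0.0340) and phospho-S6 (-1.22, SE 0.43, adjusted p = 0.0449). RFI ran from 0.479 to 0.731 in corn oil and from 0.601 to 0.964 in methylcellulose for MTOR, and from 0.0775 to 0.214 against 0.162 to 0.481 for RPS6_2, so the vehicles overlapped. After each animal was centred on its own median over analytes, the differences were -0.12, -0.88 and -0.94 and none of the 8 analytes was called. None of these 3 was called without corn oil set 4 or without methylcellulose set 1 either. The phospho-S6 call was also lost without corn oil set 3 (adjusted p = 0.184) or methylcellulose set 2 (0.0898) or 5 (0.121), and the MTOR call without methylcellulose set 6 (0.103).

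AKT1 was not called in any compound by limma, in either form. AKT1_P-S473 had 0 of 15 calls against the labelled sets and 0 with an unadjusted p below 0.05, its 15 differences ran from -0.36 in PB to 0.40 in PBO, and all 15 of the 95% intervals held 0. The bounds of those intervals lay between -0.76 and 0.80 on the log2 scale. In PBO the AKT1_P-S473 RFI was 0.314, 0.338 and 0.284, above the 0.227, 0.252 and 0.229 of set 5, and that difference did not pass the test. Total AKT1 differed by -0.28 in PB to 0.45 in DES, with 1 unadjusted p below 0.05. In DES the AKT1 RFI was 0.456, 0.479 and 0.471, above the 0.375, 0.405 and 0.266 of set 5 in all 3 animals, with an adjusted p of 0.388.

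Total MTOR and its S2481 form were not called in any compound by limma, and 1 and 0 of their 15 tests against labelled sets had an unadjusted p below 0.05. MTOR_P-S2481 differed by -0.37 in PB to 0.22 in PBO, with intervals that held 0 in 15 of 15 compounds. MTOR differed by -0.40 in DHEA to 0.45 in CPA. In CPA the MTOR RFI was 0.692, 0.754 and 0.854, above the 0.565, 0.554 and 0.558 of corn oil set 4, with an adjusted p of 0.224.

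The S2448 form of MTOR was lower in DHEA and Wy when all methylcellulose controls served as reference. Its RFI was 0.408, 0.465 and 0.486 in DHEA and 0.388, 0.397 and 0.477 in Wy, while the 12 methylcellulose controls ran from 0.474 through a median of 0.622 to 1.04. Both compounds overlapped the lowest controls in their highest animal. The difference from all methylcellulose controls was -0.53 in DHEA (SE 0.16, adjusted p = 0.0158) and -0.63 in Wy (adjusted p = 0.00308). The DHEA call was lost without DHEA animal 1 (-0.45, adjusted p = 0.184), and after each animal was centred on its median the DHEA difference was -0.30 (adjusted p = 0.0478). Against the 3 animals of set 1, which had 0.623, 0.701 and 0.551, the differences were -0.46 (adjusted p = 0.208) and -0.57 (adjusted p = 0.0810). In PB the MTOR_P-S2448 RFI was 0.521, 0.430 and 0.466 against 1.04, 0.615 and 0.597 in set 6, a difference of -0.63 (adjusted p = 0.0612).

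Total S6 was not called in any compound by either antibody in the limma test, and 1 test of RPS6_1 and 2 of RPS6_2 against labelled sets had an unadjusted p below 0.05. The largest differences from the labelled set were in Wy, at -1.54 by RPS6_1 (adjusted p = 0.144) and -1.11 by RPS6_2 (adjusted p = 0.238). The RPS6_1 RFI was 4.02, 11.5 and 4.93 in Wy and 10.9, 22.1 and 23.3 in set 1, so the highest Wy animal lay above the lowest control. Within groups the 2 antibodies moved together over the 63 animals (Spearman correlation of deviations from group means 0.78), while phospho-S6 followed them less (0.24 with RPS6_1 and 0.22 with RPS6_2). These correlations are over animals whose lysates share protein adjustment and printing, and they are given as a description.

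Phospho-S6 was lower than in the labelled set in 4 compounds: DHEA, DES, Wy and PBO. These were the 4 calls among the 120 tests of the 8 analytes, a share to be read against the 3.16% of all analyte tests that were called, with 1.73% in the lower direction. By compound, 5.06% of all analytes were called lower in DHEA, 7.59% in Wy, 1.9% in DES and 1.27% in PBO. In DHEA, a steroid hormone precursor that induces peroxisomes in rat liver, phospho-S6 RFI was 0.560, 0.943 and 1.42 against 9.66, 6.69 and 4.52 in set 1. All 3 DHEA animals lay below all 3 controls, and the fall was 2.87 on the log2 scale (SE 0.59), 7.31-fold, with an adjusted p of 0.00124. In Wy, an agonist of the peroxisome proliferator receptor PPAR alpha, the values were 1.33, 1.41 and 2.44 against the same controls. This was a fall of 2.00 (SE 0.59, 3.99-fold, adjusted p = 0.0228).

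In DES, a synthetic estrogen, phospho-S6 RFI was 1.05, 2.64 and 1.89 against 12.7, 8.16 and 12.6 in set 5, without overlap. The fall was 2.65 (SE 0.59, 6.30-fold, adjusted p = 0.00408). In PBO, an inhibitor of cytochrome P450 enzymes used with insecticides, the values were 5.21, 3.71 and 1.39, and the fall of 1.87 (3.65-fold) had an adjusted p of 0.0466. The DHEA and DES calls remained when any animal was left out. The PBO call was lost when set 5 lacked animal 7 (adjusted p = 0.162) or 9 (0.205) or PBO lacked animal 2 (0.0833) or 3 (0.185), and the Wy call when set 1 lacked animal 4 (0.120) or 5 (0.0769) or Wy lacked animal 1 (0.111) or 2 (0.0786). DHEA and Wy share the animals of set 1, and DES and PBO those of set 5.

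In the other compounds no analyte of the 8 was called against the labelled set. Over all 15 compounds, 16 of the 120 limma tests had an unadjusted p below 0.05, and the share of all analytes at that level was not taken. In MPy the phospho-S6 RFI was 2.41, 3.05 and 1.16, below all 3 animals of set 1, with a difference of -1.70 (adjusted p = 0.311). In Nif it was 1.88, 3.57 and 1.97 against 11.8, 8.00 and 4.76 in set 2, also without overlap, with a difference of -1.70 (adjusted p = 0.941). In ETH it was 3.08, 5.48 and 4.03 against set 5, a difference of -1.42 (adjusted p = 0.233). Phospho-S6 was outside the range of the labelled controls in all 3 treated animals in 7 of 15 compounds, and the 95% interval of the difference held 0 in 7 of 15. Over all 8 analytes this non-overlap occurred in 20 of 120 tests, against 16.3% of all analyte tests.

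The remaining methylcellulose compounds of sets 1 and 2 had phospho-S6 values that overlapped their controls. RFI was 2.74, 4.83 and 2.79 in AA (difference -0.995), 5.11, 3.68 and 1.93 in TAA (-1.003), 2.76, 7.01 and 6.73 in Mcarb (-0.39) and 3.04, 5.84 and 2.74 in CFX (-1.07). In PB the values were 1.95, 5.29 and 1.16 against 3.66, 1.43 and 0.945 in set 6. The PB difference was 0.43 with an interval from -0.77 to 1.62 (adjusted p = 0.604).

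In corn oil, phospho-S6 RFI was 8.85, 3.01 and 3.60 in CIDB, 3.30, 3.92 and 4.49 in DMN and 1.87, 2.95 and 3.19 in CPA. The differences from the labelled sets were 1.21 in CIDB (SE 0.59, adjusted p = 0.284), 0.97 in DMN and -0.14 in CPA. 8 of the 9 treated corn oil animals lay within the range of the 6 corn oil controls (0.871 to 7.26), and CIDB animal 1 lay above it.

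**Figure D3:**
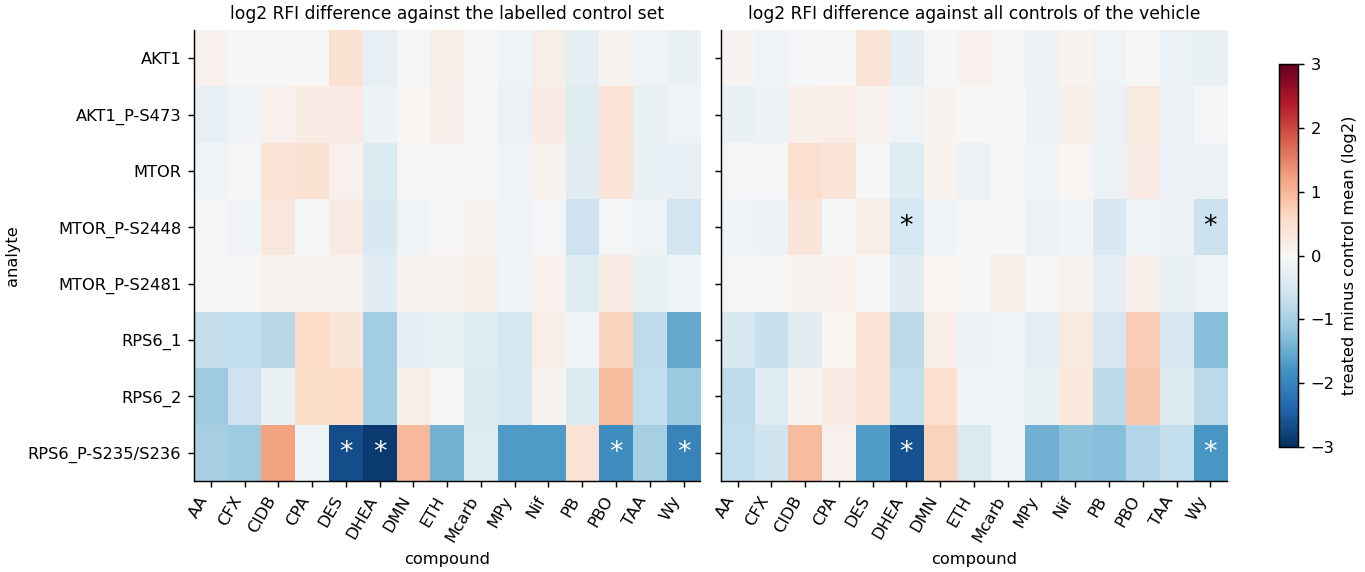
Log2 differences of the 8 AKT1, MTOR and RPS6 analytes in the 15 compounds, against the labelled control set and against all controls of the vehicle, in separate panels. Stars mark calls at an adjusted p below 0.05. The stars lie in phospho-S6 (DHEA, DES, Wy and PBO against the labelled set, DHEA and Wy against all controls) and in MTOR_P-S2448 (DHEA and Wy against all controls).

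Against all controls of the vehicle, 4 of 120 tests were called and all were lower, where 4.94% of all analyte tests were called and 3.04% in the lower direction. Beside the S2448 form of MTOR in DHEA and Wy these were phospho-S6 in DHEA (-2.61, SE 0.56, adjusted p = 6.9e-04) and Wy (-1.74, adjusted p = 0.0248). The Wy call was lost without Wy animal 1 (adjusted p = 0.143) or 2 (0.133), and also without all of set 1 (0.0509), set 2 (0.0666) or set 5 (0.0959). DES (-1.68, adjusted p = 0.130) and PBO (-0.89, adjusted p = 0.349) did not pass against the 12 controls. PB, which differed by 0.43 from set 6, differed by -1.28 from all methylcellulose controls (adjusted p = 0.223). With set 6 left out of the reference, 8 of 96 tests were called, all lower, against 4.75% of all analyte tests and 2.9% in the lower direction. Set 6 had the lowest phospho-S6 of the methylcellulose sets. Leaving it out therefore raises the phospho-S6 reference by construction, and these calls are no separate support. Phospho-S6 was then called in DHEA (-3.18), Wy (-2.31), DES (-2.24), MPy (-2.01), PB (-1.85) and PBO (-1.46), and MTOR_P-S2448 in DHEA (-0.47) and Wy (-0.58).

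How far the phospho-S6 result turned on the choice of control set was laid out by comparing each of the 12 methylcellulose compounds with each of the 4 methylcellulose sets. The differences were negative in 36 of 36 comparisons with sets 1, 2 and 5, and 10 of these were called: DHEA and Wy with all 3 sets, and DES, MPy, PB and PBO with set 5. Against set 6 the difference was negative in 2 of 12 compounds (DHEA -0.91 and Wy -0.03) and none was called. For example, DES differed by -2.65 from set 5 and by 0.03 from set 6, and PB by -2.26 from set 5 and by 0.43 from set 6. All of these comparisons of 1 set share its 3 animals. Of the other 7 analytes, 2 of 336 such comparisons were called, MTOR_P-S2448 in DHEA (-0.69, adjusted p = 0.0139) and Wy (-0.80, adjusted p = 0.00383), both against set 6. The share of all analytes called in these comparisons was not taken, so these counts have no background to be read against.

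**Figure D4:**
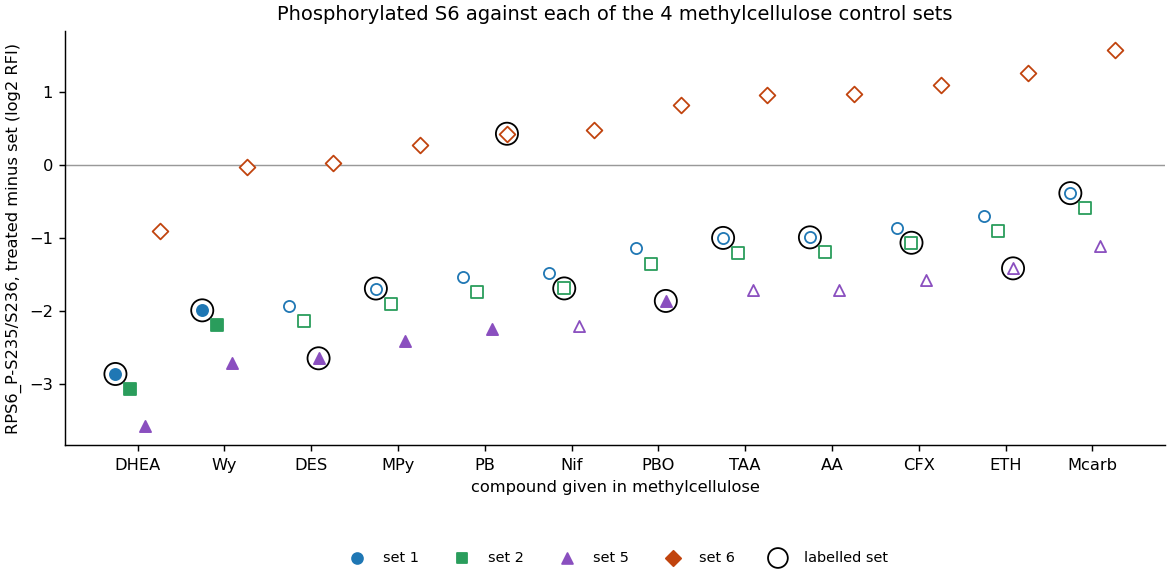
Difference in log2 phospho-S6 of each of the 12 methylcellulose compounds from each of the 4 methylcellulose control sets. Filled points were called at an adjusted p below 0.05, open points were not, and a black ring marks the labelled set. All points of sets 1, 2 and 5 lie below 0, and points of set 6 lie above 0 in 10 of the 12 compounds.

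At the level of animals, 28 of the 36 treated methylcellulose rats had phospho-S6 below 4.52, the lowest of the 9 controls of sets 1, 2 and 5, and 2 of the 36 lay below the lowest control of set 6. None lay above the highest control. When the 21 groups were ordered by mean log2 phospho-S6, DHEA was lowest, followed by Wy, methylcellulose set 6 and DES, and the 3 highest were methylcellulose sets 1, 2 and 5. None of the 20 steps between neighbours in that order had an unadjusted p below 0.05, and the largest step was 0.87, from DHEA to Wy.

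Phospho-S6 was also set against total S6 of the same animal, as log2 phospho-S6 minus the mean log2 of both total antibodies. 3 of 60 such tests of the phosphorylated members were called, against 6.67% of all such tests of modified and total forms on the array and 5.14% in the lower direction. In DES this difference was -0.755, -0.194 and -0.928 per animal against 3.00, 2.20 and 2.28 in set 5, a fall of 3.12 (SE 0.70, adjusted p = 0.00142). In PBO it was 0.720, -0.159 and -1.09, a fall of 2.67 (adjusted p = 0.0105), with RPS6_1 RFI of 30.1, 27.1 and 18.8 against 15.5, 11.9 and 21.3 in set 5. The PBO call was lost against all methylcellulose controls, where the difference was -1.66 (adjusted p = 0.0567), and without set 5 animal 7 (0.0743), PBO animal 2 (0.0711) or PBO animal 3 (0.166).

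In CIDB phospho-S6 relative to total was 3.25, 1.98 and 1.69 against 1.32, -0.274 and 0.697 in corn oil set 3, and it rose by 1.72 (SE 0.70, adjusted p = 0.0486). That call was lost against all corn oil controls (1.06, adjusted p = 0.267), with RPS6_2 as the total (1.41, adjusted p = 0.131), and without any 1 of the 3 CIDB animals (lowest adjusted p 0.0584) or without control animal 5 (0.227) or 6 (0.0965). In DHEA the values of 0.0808, -0.544 and -0.614 lay below the 2.58, 1.04 and 0.766 of set 1, with a difference of -1.82 (adjusted p = 0.124), which was called against all methylcellulose controls (-1.84, adjusted p = 0.0345). In Wy the values were 1.05, -0.217 and 1.54, within and below the range of set 1, with a difference of -0.67 and an interval from -2.09 to 0.74. Phosphorylated AKT1 and both phosphorylated forms of MTOR relative to their totals were not called in any compound by limma, with 0 unadjusted p below 0.05 for AKT1_P-S473, 2 for MTOR_P-S2448 and 1 for MTOR_P-S2481.

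**Figure D5:**
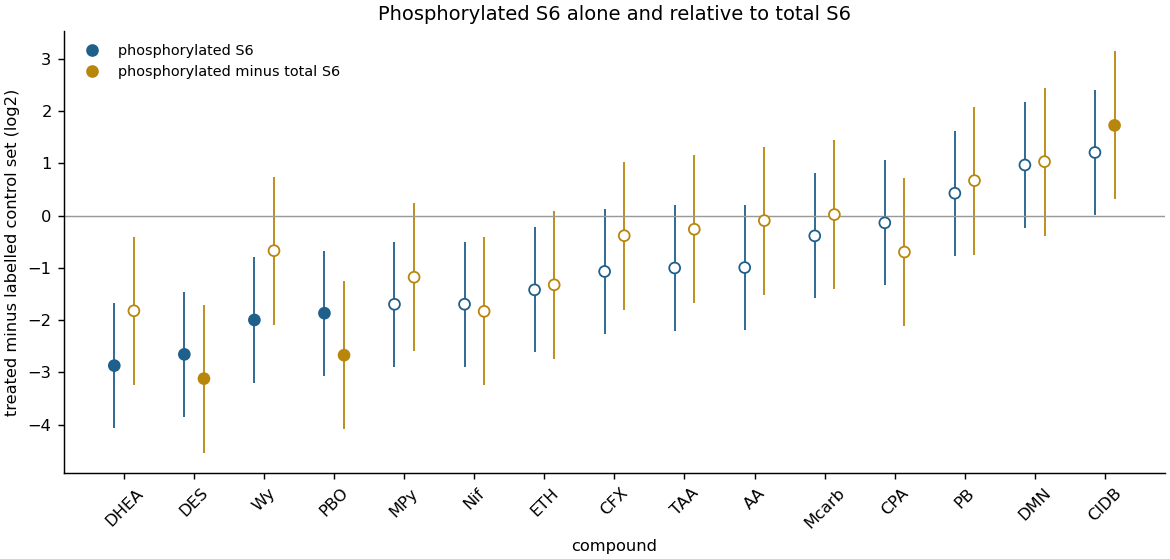
Differences of each compound from its labelled control set in log2 phospho-S6 alone and in log2 phospho-S6 minus log2 total S6, with 95% intervals. Filled points were called at an adjusted p below 0.05. DES and PBO were called on both scales, DHEA and Wy on phospho-S6 alone, and CIDB relative to total S6.

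Compounds are classed by the study as carcinogens without genotoxicity (NGC), carcinogens that are genotoxic (GC) and non-carcinogens (NC), and with the compound as the unit none of 24 tests of the 8 analytes passed, against 0.633% of all analyte tests and with 1 unadjusted p below 0.05. For this comparison, each animal was set against the median RFI of its labelled controls, not against their mean log2 RFI as above, so the values differ from those given by compound. Compound means of these log2 ratios for phospho-S6 ran from -2.88 to 0.68 in the 8 NGC, with 7 of 8 below 0, from 1.30 to 1.54 in the 2 GC, and from -1.76 to -1.13 in the 2 NC. NGC and NC overlapped, with a difference of -0.04. NGC were lower than GC by a difference of -2.90 (SE 0.76) with an adjusted p of 0.102, which did not pass. It became -3.21 (adjusted p = 0.0130) without PB and -2.35 (adjusted p = 0.0440) with all vehicle controls as reference. These were the only 2 of 14 alternatives that passed. After each animal was centred on its median the difference was -2.65 (adjusted p = 0.158). It was -2.79 without CIDB and -3.02 without DMN, each of which leaves 1 GC compound. Both GC were given in corn oil and all NGC in methylcellulose, so class and vehicle cannot be told apart in this comparison. Compounds with the same labelled set share its 3 animals, both GC those of corn oil set 3 and both NC those of methylcellulose set 2. The class p-values treat compounds as independent and do not measure the error of a shared control set.

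Other analytes of the same route were counted from a list of pathway genes. 17 analytes of 10 symbols were on the array, and 9 of their 255 tests against labelled sets were called, all lower, a share of 3.53% beside 3.16% of all analyte tests in either direction and 1.73% in the lower. The median difference was -0.08, and it was -0.03 over all analytes. The calls fell in 3 analytes, 6 of them in CDKN1B_P-S10, deposited as a phosphorylated form of the cyclin-dependent kinase inhibitor p27. Over the treated animals its RFI followed total CDKN1B in the authors' log2 ratios (Spearman 0.833) more closely than the same name (0.369). GSK3B_P-S9, the form of the glycogen synthase kinase that AKT phosphorylates, was lower in DHEA (RFI 0.104, 0.173 and 0.160) and Wy (0.124, 0.145 and 0.150) than in set 1 (0.279, 0.260 and 0.223). The differences were -0.83 (adjusted p = 0.00652) and -0.86 (adjusted p = 0.00320), without overlap. The remaining call was PRKAA1, a catalytic subunit of the energy sensor AMPK, which was lower in PB (-0.83, adjusted p = 0.0232).

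CDKN1B_P-S10 was lower in DES (RFI 1.41, 1.04 and 1.24 against 4.42, 3.43 and 3.18 in set 5), by 1.58 on the log2 scale (adjusted p = 1.0e-04). It was also called in DHEA (-1.14, adjusted p = 0.00558) and Wy (-1.13, adjusted p = 0.00320), and in CIDB (-1.39), TAA (-0.97) and PB (-0.89), where phospho-S6 was not called. It was not called in PBO. S6 kinase itself, the enzyme between MTOR and S6, was not called: RPS6KB1 and RPS6KB1_P-T389, its activating site, had 0 of 15 calls each, with 1 unadjusted p below 0.05 each and lowest adjusted p of 0.219 and 0.185. The RPS6KB1_P-T389 differences ran from -0.90 in CPA to 0.48 in CFX. In CPA the RFI was 0.818, 0.670 and 0.921 against 0.858, 0.623 and 6.14 in corn oil set 4. The difference in CPA thus rests on animal 3 of that set.

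The ERK and RSK route, which also leads to S235 and S236 of S6, had 14 analytes of 9 symbols, and 10 of 210 tests were called, 4 higher and 6 lower, a share of 4.76% beside the same 3.16% of all analyte tests. All 6 lower calls were in MAPK3_P-T202/Y204, the active form of ERK1, and they fell in DHEA, Wy, PBO, CIDB, ETH and PB. Phospho-S6 was called lower against the labelled set in 3 of these compounds (DHEA, Wy and PBO), and DES, the other compound with lower phospho-S6, had no call in MAPK3_P-T202/Y204. Its RFI was 1.32, 1.44 and 1.48 in DHEA and 1.33, 1.52 and 1.45 in Wy against 3.37, 2.94 and 2.77 in set 1, and 2.00, 2.02 and 1.31 in PBO against 2.82, 3.69 and 3.15 in set 5. None of these groups overlapped their controls, and the differences were -1.10 (adjusted p = 0.00201), -1.07 (adjusted p = 0.00149) and -0.87 (adjusted p = 0.0160). In DES the MAPK3_P-T202/Y204 RFI of 2.12, 2.19 and 2.57 was also below all 3 animals of set 5, without a call.

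The higher calls of that list included the ERK kinases MAP2K1 in DHEA (2.02, adjusted p = 2.9e-04) and Wy (2.21, adjusted p = 2.5e-05) and MAP2K2 in PBO (0.51, adjusted p = 0.00667). The RSK kinase RPS6KA1 and its forms RPS6KA1_P-T573 and RPS6KA1_P-S380 had 0 of 15 calls each by limma, with 0, 1 and 1 unadjusted p below 0.05. MKI67, a proliferation marker, was not called in any compound (lowest adjusted p 0.378).

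Within groups, the analytes whose deviations followed phospho-S6 most closely over the 63 animals were GSK3B_P-S9 (Spearman correlation 0.47), ATMIN_P-S/T (0.46) and RPS6KA4 (0.44), and the lowest was MAPK14 (-0.15), the last 3 named only as deposited. After each animal was centred on its median, the first 3 values were 0.39, 0.33 and 0.21, and MAPK14 was at -0.44. Before centring, MTOR_P-S2448 stood at 0.44, rank 5 of 157, while AKT1_P-S473 was at 0.28 and total MTOR at 0.07. After centring, MTOR_P-S2448 was at 0.32, AKT1_P-S473 at 0.14 and total MTOR at -0.18. All analytes of an animal share its lysate, so these are descriptions of likeness only.

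In the authors' log2 ratios phospho-S6 was called lower in DHEA (-2.69), DES (-2.06), Wy (-1.96) and PB (-2.15), PBO was at -1.45 (adjusted p = 0.254), and CFX (1.48) and Nif (0.68) had positive values. For 6 compounds the log2 ratios lay closest to ratios computed here with a control set other than the labelled one. That set was set 2 for DES, ETH and PBO, set 6 for CFX and Nif, and set 5 for PB. Against set 2 the phospho-S6 difference in DES was -2.14 (limma adjusted p = 0.0609), which did not pass, and PBO was called against set 5 alone. Which reference set is the right one for these compounds was not tested.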

How the data were processed

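Frozen liver of 63 rats was ground and lysed, and lysates brought to equal protein concentration were printed on ZeptoMARK arrays beside a fluorescent reference, probed with a primary and a fluorescent secondary antibody and read out as spot brightness. Intensities were deposited by the authors per animal as linear RFI of 158 analytes, corrected for background and normalized over the array according to the study's methods. The methods speak of blank-corrected signals, with the secondary antibody alone as the background, for the log2 ratios; whether the deposited RFI carries that correction was not settled here. The authors also deposited log2 values, which are ratios to the median of corresponding controls with missing values imputed. These served as an alternative, since their offsets and some of their reference animals are not explained by the labels.

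RFI at or below 0 was set to missing and the rest was log2 transformed without further scaling. Means of 21 groups (17 where vehicle controls were pooled) were fitted to all 63 animals at once with limma 3.58.1 (lmFit and eBayes) in R 4.3.3. P-values were two-sided, and the Benjamini-Hochberg adjustment ran over the 158 analytes within each comparison, or over 48 pairs of modified and total forms. Class comparisons used compound means of 12 compounds, leaving out CPA, TAA and Wy, which have no class. The fit was tested on simulated data. Groups came from the sample labels, and 0 columns lacked a sample.

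The analytes named are all forms of AKT1, MTOR and RPS6, members of the 2 lists (an AKT, MTOR and S6 list and an ERK and RSK list) called where 1 of the 8 was called (up to 5 per comparison), and the 3 most and 1 least like phospho-S6. PRKAA1, S6 kinase, RPS6KA1 and MKI67 were named beside these after their values were seen. The members and lists were chosen with earlier results of these data known. PB and control set 6, and CPA and control set 4, share animal numbers. The deviations of same-numbered animals correlated at 0.159 to 0.307 for CPA and at 0.0072 to 0.069 for PB, so by the rule of every pair above 0.1 the numbers were taken to pair the CPA animals only. The labels name no pairs. Analytes also varied with the order of animal numbers, so these correlations cannot show a pairing. Alternatives covered centring, low values, a trend in the spread, other references, the order of animal numbers and each animal left out. The deposited values name no genome build, and no coordinates or sequences are printed.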

Additional observations from a re-analysis of the deposited data

Results flagged for a closer look

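RPS6_1, a total S6 antibody, had an RFI of 36.7 in animal 6 of corn oil set 3, and the next highest of the 6 corn oil controls had 10.98. The gap was 0.786 of the whole range of the 6 values, above Dixon's 95% critical value of 0.625. On the log2 scale, on which the tests were run, the gap was 0.54 of the range, below that value. 1 of 8 such groups of control animals was singled out in this way, and chance singles out about 1 in 20. In the same animal RPS6_2 was 0.184, below the 0.214 of animal 5 of that set, and phospho-S6 was 4.21.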

How the results depend on the processing

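Of 665 values of single analytes recomputed under alternatives, 557 kept their direction and their side of the threshold, 52 lost the call, 25 gained it and 31 changed sign. Against the labelled sets, the 4 calls became 8 with only the 6 animals compared in the fit. Against set 6 as the reference, phospho-S6 differences turned positive in AA (0.97), CFX (1.10), DES (0.028), ETH (1.26), Mcarb (1.57), MPy (0.27), Nif (0.47), PBO (0.81) and TAA (0.96), and that of PB turned negative against set 1 (-1.54), set 2 (-1.74) and set 5 (-2.26). In the authors' log2 ratios PB was at -2.15, CFX at 1.48 and Nif at 0.68; the cause was not tested. The PBO call was also lost when limma modelled a trend of variance on mean with robust shrinkage (adjusted p = 0.0551) and without the dimmest analytes (a share of 0.25) (adjusted p = 0.0516). Centring each animal gave 7 calls in place of 4 against all vehicle controls, 2 in place of 1 between control sets and 0 in place of 3 between vehicles, and it moved CPA against all corn oil controls to -0.055 and NGC minus NC to 0.29. Comparisons of control sets with only 6 animals gave 3 calls. The F test among methylcellulose sets gave 0 calls with a trend and robust shrinkage (adjusted p = 0.0548). The class comparison gave 1 call in place of 0 with all vehicle controls.

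With animals, sets or compounds left out in turn, the calls ran from 2 to 5 against labelled sets (2 without set 1 animal 5, Wy animal 1 or Wy animal 2), from 3 to 8 against all vehicle controls (8 without set 6), from 0 to 2 between control sets, from 0 to 1 in the F test, from 1 to 3 relative to total protein (1 without set 5 animal 7 or PBO animal 2), from 0 to 3 between vehicles and from 0 to 1 between classes. The AKT, MTOR and S6 list had 6 to 14 calls in place of 9, with 14 without corn oil set 4 animal 3 or methylcellulose set 6 animal 3. Phospho-S6 differences that changed sign ran from -0.998 to 0.53 in CPA, from -0.67 to 0.050 in Mcarb and from -0.18 to 0.98 in PB against labelled sets, from -0.14 to 0.39 in CPA and from -0.70 to 0.31 in Mcarb against all vehicle controls, and from -0.35 to 0.27 for NGC minus NC.

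With the replicate block for CPA, whose numbers were taken as pairs with set 4, phospho-S6 differed by -0.14 (adjusted p = 0.893). For PB, which shares only numbers with set 6, phospho-S6 differed by 0.43 (adjusted p = 0.639), so neither gained a call. A replicate block on the order of animal numbers over all animals, added after seeing the data, kept the 4 calls of phospho-S6 (adjusted p = 8.1e-04 to 0.036) and raised the calls relative to total protein from 3 to 6. Control sets of the same vehicle share no animal numbers, so only that block on order could be set up for them, and under it set 5 still exceeded set 6 by 2.68 (adjusted p = 0.00472).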

Other observations

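Total S6 and total MTOR varied with the order of the animals' title numbers within a group, an ordering set up after seeing the data. The first-numbered animal was the lowest of its group in 14 of 21 groups for RPS6_2 (adjusted p = 0.00100 by a limma F test of order), in 14 for MTOR (adjusted p = 0.00134) and in 12 for RPS6_1 (adjusted p = 0.0377), where 15.8% of all analytes varied with this order. Mean deviations of log2 RFI from the group mean were -0.48, 0.21 and 0.27 for RPS6_2 in the first, the second and the third animals. Phospho-S6 (adjusted p = 0.247), AKT1_P-S473 (0.263), MTOR_P-S2448 (0.976) and MTOR_P-S2481 (0.573) did not pass. What the order of the numbers stands for is not given in the labels, and its part in these values was not tested further.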
